A study of Mus musculus with 6 samples.

Results

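The 6 genes described here, Pcsk2, Chgb, Scg2, Scg3, Cpe and Pam, encode proteins that process neuropeptide precursors or store them in dense-core vesicles, and all 6 were among the 7507 genes listed. They were selected on that function with their UMI counts in these same libraries already known. The contrast of the dentate gyrus (DG) with the CA1 is therefore given for them as a description, with no test. BALI-Multiome, which writes a spatial barcode onto cDNA and open chromatin by light-directed ligation, was applied to sections of fresh frozen adult mouse brain. In each of 3 sections light was aimed at the DG and at the CA1, each of which received a different index. This gave 6 RNA libraries, 3 per region, paired by section. The study states that its DG area possibly took in a small part of the hilus. No genotype, treatment, strain or sex was named in the labels, the same tissue handling applied to both regions, and age was given as 12 weeks in one label and as 8 to 12 months in the growth protocol. The replicates are called biological in the study, and whether the sections came from different animals was not given in the sources used here. Each SD is the spread between these sections, unless it is marked n = 6. Those marked n = 6 take both regions together, so the paired libraries of a section enter separately. Each library is a pool of all cells under an illumination mask, in which fewer cells of a type and less RNA per cell cannot be told apart.

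A unique molecular identifier (UMI) marks 1 captured cDNA molecule. The DG libraries held between 4572 and 17999 gene-assigned UMIs and the CA1 libraries between 2844 and 9357, after removal of the 1 that the deposited table adds to every gene. Within a section the DG held 1.29 to 1.92 times as many UMIs as the CA1. Levels are given as the share of a library's UMIs, with exact Clopper-Pearson 95% intervals that cover counting error only. A count of 0 allows up to 3 UMIs, a share between 0.0167% in the deepest library and 0.105% in the shallowest.

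Peptide hormones and neuropeptides are made as long precursors that enter the regulated secretory pathway. In the maturing dense-core vesicle, prohormone convertases cut the precursor after pairs of basic residues, carboxypeptidase E trims the exposed residues, and peptidylglycine alpha-amidating monooxygenase amidates peptides that end in glycine. Granins are acidic proteins that aggregate in the trans-Golgi network and take part in loading the vesicle. In the hippocampus, dense-core vesicles of granule cells and pyramidal cells carry neuropeptides and neurotrophins.

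Pcsk2, the convertase PC2, held most of the UMIs of the set. In sections 1, 2 and 3, its UMIs numbered 38, 10 and 20 for the DG and 11, 6 and 12 for the CA1. With 97 UMIs it ranked 34th of all listed genes, and it was among the 73 most abundant genes of every library. Pcsk2 supplied 97 of the 133 UMIs of the 6 genes, which is 72.9% (interval 64.5% to 80.3%), and between 60.0% and 85.7% of them in single libraries. No other member was above 4 UMIs in any library.

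As a share of the library, Pcsk2 was at 0.211% in the DG of section 1 (interval 0.149% to 0.290%), 0.219% in section 2 (0.105% to 0.402%) and 0.318% in section 3 (0.194% to 0.490%). In the CA1 it was at 0.118% in section 1 (0.0587% to 0.210%), 0.211% in section 2 (0.0775% to 0.459%) and 0.247% in section 3 (0.128% to 0.430%). The order of the libraries, from high to low, was DG section 3, CA1 section 3, DG section 2, DG section 1, CA1 section 2 and CA1 section 1. Every library's interval overlapped that of its neighbour in this order. The values of the regions overlapped, since the CA1 of section 3 was above the DG of sections 1 and 2.

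The mean share of Pcsk2 over the sections was 0.249% ± 0.0594 for DG and 0.192% ± 0.0667 for CA1 (SD, n = 3), a ratio of 1.30 and a log2 ratio of 0.38. Within a section the DG share over the CA1 share was 1.80 in section 1 (counting interval 0.900 to 3.90), 1.04 in section 2 (0.341 to 3.47) and 1.29 in section 3 (0.599 to 2.89). The DG was thus the higher library in 3 of 3 sections, while each section's interval included equal levels. Of the 394 genes with a UMI in all 6 libraries, 31 (7.87%) were higher in the DG in all sections and 79 were lower in all, and Pcsk2 is the only member in that set of 394. A ratio of mean shares at least as high as that of Pcsk2 was seen for 57 of them (14.5%), Pcsk2 itself included. The mean difference between the regions was 0.0574 percentage points, with an SD of 0.0445 between sections. Leaving out the CA1 library of section 1 lowered the log2 ratio to 0.12, and leaving out the DG library of section 3 lowered it to 0.16. Without both libraries of section 1 it was 0.23, and without the CA1 library of section 3 it was 0.60.

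**Figure D1:**
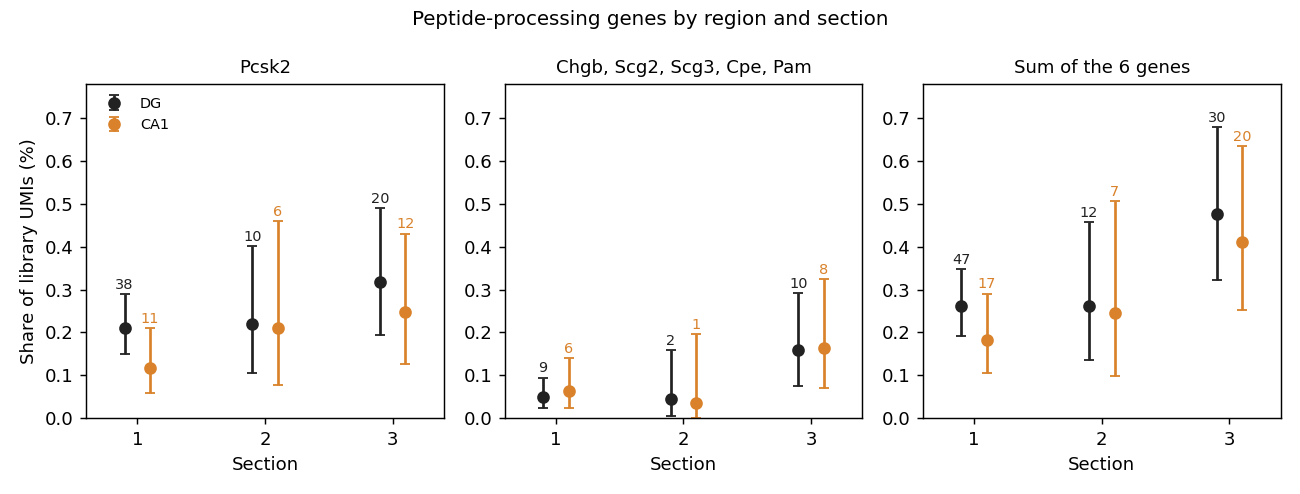
Share of library UMIs (y axis, percent) against section (x axis) for Pcsk2, for the other 5 genes summed and for all 6 summed, in the DG (black) and the CA1 (orange). Bars are exact 95% intervals and the number above each bar is the UMI count. The DG point of Pcsk2 is above the CA1 point in each section with overlapping bars, and for the other 5 genes both points of section 3, at 0.159% and 0.164%, are above the 4 others.

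In the fit across all genes by edgeR's quasi-likelihood test, Pcsk2 was the only member that passed the filter on low counts. Its log2 fold change, DG over CA1, was 0.59. The standard error, computed as the absolute log2 fold change over the square root of the test's F, was 0.38. Of the 43 genes tested, 0 (0%) had an adjusted p under 0.05 and 3 an unadjusted one, and with DESeq2 both counts were 0. The value depended on scaling, with 0.59 under TMM and 0.46 under total UMIs, while the median of the 43 genes moved from -0.022 to -0.14. With the section as a block the log2 fold change of Pcsk2 was 0.65 (standard error 0.28, computed in the same way). Both fold changes of Pcsk2 are description, because it was chosen with its counts known, and its standard errors are not read as a test.

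The added count changes the apparent size of these differences. On the deposited counts Pcsk2 averaged 1320 ± 355 CPM for DG and 813 ± 207 CPM for CA1 (SD, n = 3), a ratio of 1.62 where the UMIs gave 1.30. A gene without any UMI has a ratio of 0.821 on that scale, because the added counts weigh more in the shallower CA1 libraries. Scg3 and Pam, at a ratio of 0.812 each, sat next to that value.

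Pcsk2 (mm10, chromosome 2, 143546133 to 143816284, plus strand) spans 270152 bases, of which 4745 are exonic in the RefSeq annotation of GRCm38.p6. On the opposite strand the long noncoding RNA Pcsk2os1 shares 260 exonic bases with it, and counting ignored the strand. Pcsk2os1 had 1 UMI, in the CA1 library of section 1. Exons of Pcsk2os2 and Gm52527 share 77 and 7 bases with Pcsk2, and neither is among the genes listed.

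The 3 granin genes were at the limit of detection. Chgb, chromogranin B (chromosome 2, 132781642 to 132795079, plus strand), was counted at 2, 0 and 3 UMIs for DG and 1, 0 and 1 for CA1, again by section. Scg2, secretogranin II and the precursor of secretoneurin (chromosome 1, 79434366 to 79440026, minus strand), was at 1, 2 and 1 UMIs for DG and 2, 0 and 3 for CA1. Scg3, secretogranin III, which binds chromogranin A and vesicle membrane (chromosome 9, 75643366 to 75685959, minus strand), had 1, 0 and 1 UMIs in each region. Chgb and Scg3 had no UMI in either library of section 2, which allows a share of up to 0.0656% in its DG and 0.105% in its CA1 by the limit of 3 UMIs, and up to 0.0807% and 0.130% by the exact interval.

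With the UMIs of each region pooled, Chgb was at 0.0173% in the DG (interval 0.00562% to 0.0404%) and 0.0117% in the CA1 (0.00142% to 0.0423%). Scg2 was at 0.0139% (0.00378% to 0.0355%) and 0.0293% (0.00951% to 0.0684%), and Scg3 at 0.00693% (0.000839% to 0.0250%) and 0.0117% (0.00142% to 0.0423%). The intervals of the regions overlapped for each granin, so this depth could not resolve a difference. Summed, the granins took 11 UMIs in the DG and 9 in the CA1, with mean shares of 0.0485% ± 0.0289 for DG and 0.0485% ± 0.0516 for CA1 (SD, n = 3 per region).

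Promoters of these genes were read from RefSeq (GRCm38.p6), where 5 of the 6 genes had an entry, and the windows of 250 bases before to 50 bases after the start were searched on both strands for 3 motifs chosen for this description. The cAMP response element TGACGTCA, bound by CREB, was found in Scg2 and Chgb. It was found in 2.03% of all 27025 genes with a window and in 1.79% of all 32851 windows. The GC box GGGCGG was found in 3 members, Chgb, Pcsk2 and Pam, in 38.2% of all genes and in 35.7% of all windows. The letters TATAAA were found in 0 of the 5 members, in 15.7% of all genes and in 13.6% of all windows. The 130 bases before the start of Scg2 (chr1:79440027-79440156, minus strand), Chgb (chr2:132781512-132781641, plus strand) and Pcsk2 (chr2:143546003-143546132, plus strand) are shown because they hold the response elements found and the stretch of repeated, partly overlapping GC boxes in Pcsk2. The window of Scg3, also a granin gene, held none of the 3 motifs. Capitals mark these 2 motifs on either strand. The response element began 68 bases before the start in Scg2 and 72 bases before it in Chgb. The printed stretch held 6 GC boxes in Pcsk2, 2 in Chgb and 0 in Scg2.
Scg2: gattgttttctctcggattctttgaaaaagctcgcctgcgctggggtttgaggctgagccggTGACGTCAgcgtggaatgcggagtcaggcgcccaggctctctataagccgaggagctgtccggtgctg
Chgb: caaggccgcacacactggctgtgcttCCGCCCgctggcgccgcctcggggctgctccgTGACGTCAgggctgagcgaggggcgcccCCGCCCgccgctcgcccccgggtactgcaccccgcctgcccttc
Pcsk2: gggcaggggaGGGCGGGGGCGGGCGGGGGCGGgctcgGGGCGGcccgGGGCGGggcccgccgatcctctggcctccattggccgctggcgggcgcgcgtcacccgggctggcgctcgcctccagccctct
A match describes these letters only, and no binding was measured.

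The 2 enzymes that act after the convertase were also low. Cpe, carboxypeptidase E (chromosome 8, 64592542 to 64693109, minus strand), was at 4, 0 and 4 UMIs for DG and 1, 1 and 2 for CA1. Its mean share was 0.0286% ± 0.0322 for DG and 0.0290% ± 0.0161 for CA1 (SD, n = 3), and the regions overlapped. Pam, the amidating enzyme (chromosome 1, 97821091 to 98095853, minus strand), had 1, 0 and 1 UMIs in each region, the same 6 counts as Scg3. These 6 counts were shared by 8 genes of the table, Scg3 and Pam included. Of the 30 values of the 5 genes other than Pcsk2, 8 were 0 and 28 were 3 UMIs or fewer.

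Levels were compared between genes per kb of exon, on the scale of UMI CPM per kb. Pcsk2 was at 464.6 ± 136 CPM per kb over the 6 libraries (SD, n = 6), Cpe at 133 ± 105, Scg2 at 90.7 ± 86.8, Chgb at 63.1 ± 74.8, Scg3 at 21.4 ± 20.6 and Pam at 14.5 ± 13.9. Pcsk2 was above every other member in 6 of 6 libraries. Its mean per kb was 3.51 times that of Cpe and 32.1 times that of Pam, where the ratios of UMIs, not divided by length, were 8.08 and 24.25. The study describes poly-T priming, under which a UMI count need not scale with exon length, so these ratios depend on the scale. Among the 5 others, neighbours in this order differed by less than the larger of their SDs. Of 7187 genes with an exon length, Pcsk2 ranked 77th per kb, Cpe 323rd, Scg2 518th, Chgb 809th, Scg3 2489th and Pam 3415th.

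**Figure D2:**
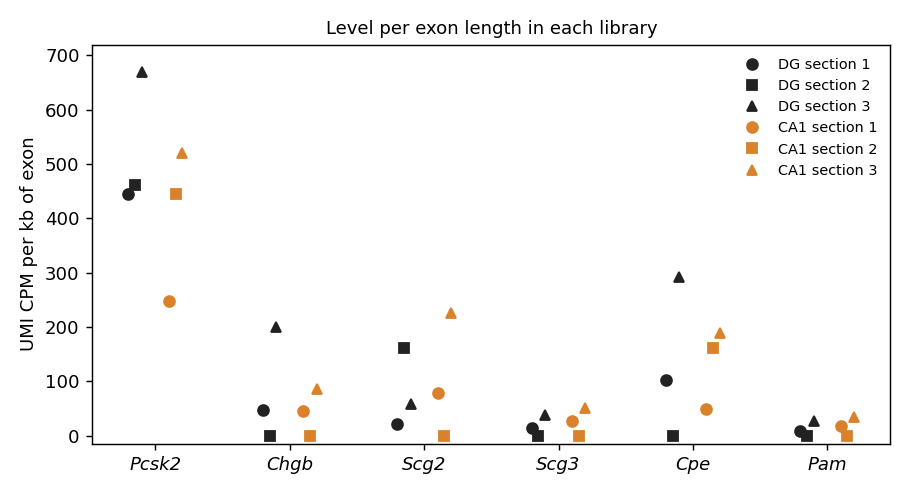
UMI CPM per kb of exon (y axis, linear) for each of the 6 genes (x axis) in each library, DG in black and CA1 in orange, with circles, squares and triangles for sections 1, 2 and 3. Every Pcsk2 point, from 248 to 669, is above the points of the other genes in its own library, and triangles are the highest symbols of their region for Pcsk2, Chgb, Scg3, Cpe and Pam.

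Summed over the 6 genes, the DG libraries held 47, 12 and 30 UMIs and the CA1 libraries 17, 7 and 20. The sum was at 0.261%, 0.262% and 0.476% in the DG and at 0.182%, 0.246% and 0.411% in the CA1 of sections 1, 2 and 3. The DG was the higher library in 3 of 3 sections, and the regions overlapped. The means were 0.333% ± 0.124 and 0.280% ± 0.118 (SD, n = 3), a log2 ratio of 0.25. This ratio rested on Pcsk2, since the sum of the 5 others was at 0.0842% ± 0.0647 in the DG and 0.0879% ± 0.0678 in the CA1, a log2 ratio of -0.063. It also rested on single libraries, with -0.095 without the DG library of section 3, 0.020 without the CA1 library of section 1 and 0.64 without the CA1 library of section 3.

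**Figure D3:**
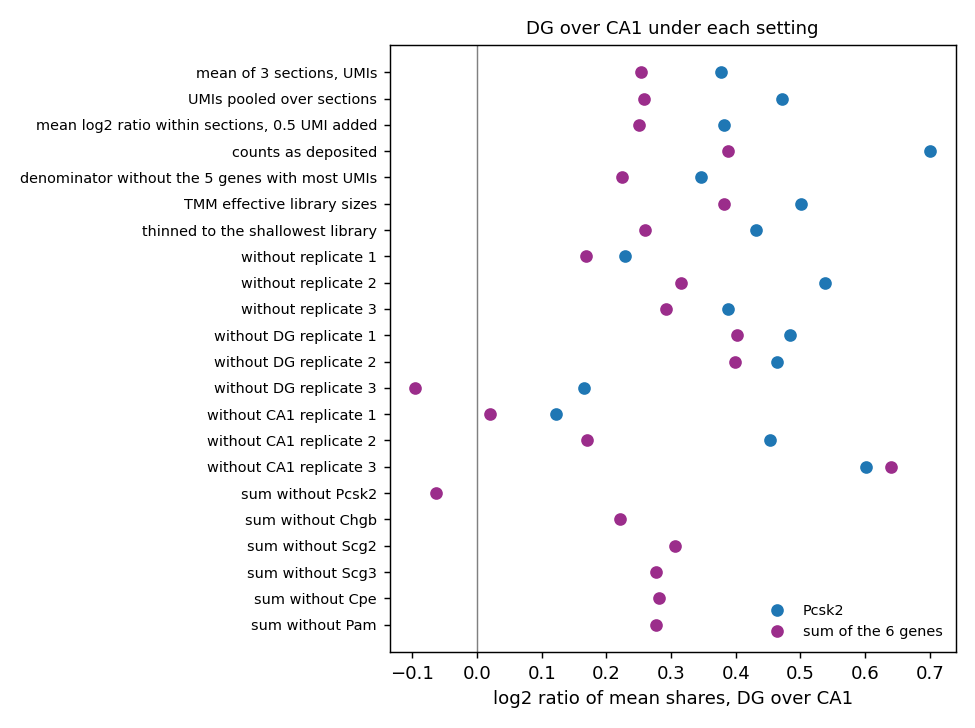
Log2 ratio of the mean share, DG over CA1 (x axis), under each way of computing it or with the named library, section or gene left out (y axis), where replicate numbers are section numbers. Blue points are Pcsk2 and purple points the sum of the 6 genes, and the grey line marks equal shares. All Pcsk2 points, from 0.12 to 0.70, are to the right of the line, and the sum is to its left without the DG library of section 3 and without Pcsk2.

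The sum of the 6 genes also varied with the section. With both libraries of a section averaged, it was at 0.444% in section 3 and at 0.238% in sections 1 and 2, 1.87 times as high. For the 5 genes without Pcsk2 the values were 0.162% and 0.0483%, 3.35 times as high, and for Pcsk2 alone 0.282% and 0.190%, 1.49 times as high. The 5 genes had only 15, 3 and 18 UMIs in sections 1, 2 and 3. With the libraries of a section pooled, their interval in section 3 was 0.0956% to 0.255%. It overlapped that of section 2 (0.00834% to 0.118%) and was above that of section 1 (0.0307% to 0.0904%). Both libraries of section 3 were above the 4 others for 5 of the 6 genes, all but Scg2. Among the 2929 genes with at least 4 UMIs, the lowest total of a member, 6.45% had this pattern, and among the 394 genes with a UMI in all libraries 8.88% had it. Scg3 and Pam have identical counts, Chgb, Scg3 and Pam have none in section 2, and the pattern was noticed in these data, so no test is given.

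Marker lists were read by section beside this result. Over both libraries the GABAergic interneuron list, whose cells make several neuropeptides, had 10 UMIs (0.0366%) in section 1, 1 UMI (0.0135%) in section 2 and 8 UMIs (0.0717%) in section 3. The list for CA3 and mossy cells had 3, 1 and 5 UMIs, and the 5 were all Nrip3 in the DG library of section 3. Choroid plexus markers had 7, 0 and 6 UMIs (0.0256%, 0% and 0.0537%), and both of their section 3 libraries, at 0.0476% and 0.0617%, were above the 4 others. The interneuron list had the same pattern, with its section 3 libraries at 0.0635% in the DG and 0.0822% in the CA1. The DG granule neuron list was lowest in section 3, with 13, 5 and 2 UMIs (0.0475%, 0.0674% and 0.0179%) in sections 1, 2 and 3. Its interval in section 3, 0.00217% to 0.0647%, overlapped those of sections 1 and 2. The pan-neuronal list was at 0.435%, 0.512% and 0.546% in sections 1, 2 and 3, and the oligodendrocyte list at 0.874%, 0.566% and 0.752%. The part of these lists in the difference between sections was not tested.

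The other genes of the pathway were read from 8 lists with 114 genes, of which 63 were listed and held 539 UMIs. None of the 114 passed the filter of the edgeR fit. Among the genes with at least 10 UMIs, a looser filter that left 999 genes, 14 of the pathway were tested and 0 were called in either direction, against 0 of all 999 (0%), with 0 and 52 at an unadjusted p under 0.05. The median log2 ratio of pooled UMIs, DG over CA1 with 0.5 UMI added, was 0.015 over the 63 genes, -0.30 over the 6 members and 0.090 over all genes. The value of the members is the midpoint between Cpe and the equal values of Scg3 and Pam, each with 2 UMIs per region. Equal UMIs give a log2 ratio below 0 because the DG libraries are deeper, so -0.30 does not place the members below other genes. No pathway gene had as many UMIs as Pcsk2, and 14 had more than Cpe.

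Among convertases and their helpers, Furin, Pcsk1 and Pcsk5 were outside the genes listed. Pcsk1n, which encodes the convertase inhibitor proSAAS, had 8, 2 and 2 UMIs for DG and 4, 1 and 3 for CA1. Scg5, which encodes the PC2 chaperone 7B2, was at 2, 0 and 2 UMIs for DG and 0, 0 and 1 for CA1, and Pcsk7, a convertase of the constitutive pathway, had 3, 2 and 0 against 0, 1 and 0. Among the other granins, Chga (chromogranin A) had 5 UMIs and Vgf 4. On the list of other processing enzymes and related proteins, Cpd, Cpxm1 and Ctsl had 2, 1 and 1 UMIs, all in the DG. The supply of ascorbate and copper, which the amidating enzyme needs, was represented by Slc23a2 with 3 UMIs, Atox1 with 2, and Atp7a and Slc31a1 with 1 each.

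Of 20 precursors of neuropeptides and neurotrophins, 7 were listed, with 24 UMIs in all. Sst, the somatostatin precursor of interneurons, was at 3, 0 and 1 UMIs for DG and 2, 0 and 1 for CA1, and is also on the interneuron list. Bdnf, a neurotrophin stored in dense-core vesicles, had 2, 1 and 1 UMIs in the DG and 0 in every CA1 library, and Cck had 3, 0 and 0 against 0, 1 and 0. Of 27 receptors 9 were listed, led by the neurotrophin receptors Ntrk2 (7, 1 and 2 against 4, 3 and 2 UMIs) and Ntrk3 (6, 1 and 2 against 3, 0 and 3). The neuropeptide Y receptor Npy1r had 6 UMIs, all in the DG library of section 1.

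Genes for vesicle formation and sorting took 0.201% ± 0.0647 of UMIs for DG and 0.238% ± 0.160 for CA1 (SD, n = 3), led by the sorting receptor gene Sorl1 with 11, 5 and 6 UMIs for DG and 5, 8 and 4 for CA1. Rab2a, a small GTPase of vesicle maturation, had 13 UMIs and the sorting receptor gene Sort1 had 8. Genes for the vesicle membrane and release, 20 of 26 listed, took 0.731% ± 0.0377 for DG and 0.602% ± 0.111 for CA1, and the DG was higher in 3 of 3 sections. Snap25, with 26 UMIs, is also on the pan-neuronal list, so this list is not particular to dense-core vesicles. Cplx2, a regulator of SNARE-mediated fusion, was at 33, 5 and 11 UMIs for DG and 13, 1 and 2 for CA1. Kif1a, a motor that carries dense-core vesicles, had 18, 4 and 4 against 10, 1 and 4. Ptprn, which encodes a phosphatase-like protein of the vesicle membrane, had 12, 5 and 4 against 6, 5 and 4. Section 3, where the sum of the 6 genes was highest, had the lowest share of release genes of its region, at 0.699% in the DG and 0.493% in the CA1.

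**Figure D4:**
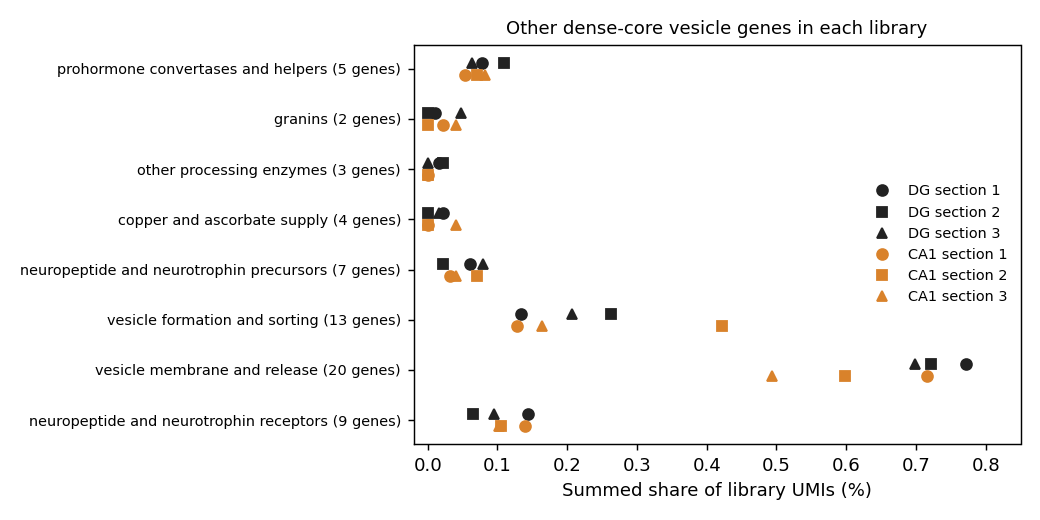
Summed share of library UMIs (x axis, percent) of 8 lists of other dense-core vesicle genes (y axis, with the number of genes listed), DG in black and CA1 in orange, with circles, squares and triangles for sections 1, 2 and 3. The list of vesicle membrane and release genes holds the most UMIs, from 0.493% to 0.772%, and the enzyme, granin and supply lists are near 0.

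The genes most like Pcsk2 were sought by Pearson's r of log2(UMI CPM + 100) over the 6 libraries among 189 other genes with at least 30 UMIs. They were Pgm2l1 (r = 0.900), Ank3 (0.856), Slc1a2 (0.825), Gnao1 (0.799) and Phactr1 (0.784). Ank3, which encodes ankyrin-G, was at 52, 15 and 22 UMIs for DG and 14, 11 and 15 for CA1. Slc1a2, a glutamate transporter gene, is also on the astrocyte list. For the sum of the 6 genes they were Map1a (0.886), Ttc14 (0.840), 5031426D15Rik (0.827), Tnrc6b (0.810) and Slc1a2 (0.807). These values describe 6 points that share libraries and depths, and no p is given.

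The labelled regions were read against marker lists. The pan-neuronal list, with 7 of 7 genes listed and Syt1 (111 UMIs) and Rbfox3 (44) first, took 0.411% to 0.556% in the DG and 0.481% to 0.633% in the CA1. The DG granule neuron list, with 6 of 12 genes listed, had 0.0318% to 0.0875% in the DG and 0% to 0.0352% in the CA1, with Pdzd2 and Synpr at 6 UMIs each, all in the DG. On the same list Calb1 had 2 UMIs and Lct 1, all in the CA1. The defining granule cell genes Prox1 and C1ql2 were outside the genes listed. The CA1 list, with 9 of 10 listed, had 0.0318% to 0.0875% in the DG and 0.0352% to 0.144% in the CA1, where Pou3f1 had 6 UMIs in the DG and 4 in the CA1 and Dkk3 1 and 4. In section 2 the CA1 list was higher in the DG, at 0.0875% against 0.0352%. Named after their values were seen, Mpped1 had 1 UMI in the DG and 3 in the CA1, and Wfs1 and Neurod6 had 2 each, all in the CA1. The regional lists rest on 20 and 32 UMIs, so the labels are only weakly checked by them.

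Glia were present in both regions. Oligodendrocyte markers, 8 of 10 listed and Mbp at 144 UMIs, took 0.503% to 0.811% in the DG and 0.668% to 0.994% in the CA1 and were lower in the DG in 3 of 3 sections. Astrocyte markers, 5 of 9 listed and Slc1a2 at 70 UMIs, took 0.272% to 0.372% and 0.278% to 0.391% and were also lower in the DG in 3 of 3 sections. Interneuron markers (5 of 10 listed, Sst at 7 UMIs and Gad2 at 4) took 0.0219% to 0.0635% in the DG and 0% to 0.0822% in the CA1. Their part in the values of Pcsk2 was not tested. Microglia markers had 4 UMIs (C1qc 1), endothelial and mural markers 5 (Flt1 3, Slco1a4 2), choroid plexus markers 13 (Enpp2 7, Ttr 5) and hypothalamic and endocrine markers 2, both Avp, with Oxt and Pomc outside the genes listed.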

How the data were processed

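The 6 RNA libraries of DG and CA1, from 3 sections, were examined, and the 3 chromatin accessibility samples were not analysed here. Per the paper's methods, the authors extracted UMIs with UMI-tools, separated barcodes with cutadapt 4.1, mapped read 1 to mm10 with STAR 2.7.9a and counted UMIs per gene with featureCounts (Subread 2.0.3, default options, which ignore strand) and UMI-tools. The deposited counts hold 1 more than the UMIs in every cell of the table, so 1 was subtracted and the line of totals dropped. The lowest deposited count was 1 in every library, and the design had assumed raw counts. The deposited CPM values, their means and SDs, the deposited fold ratio and the deposited log10 ratio were made by the authors and not used.

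Shares are UMIs over a library's gene-assigned UMIs. All genes were fitted with edgeR 4.0.16 (R 4.3.3, quasi-likelihood, TMM, filterByExpr with a minimum count of 10, Benjamini-Hochberg), with DESeq2 1.42.0 as an alternative. Python 3.11.15 and scipy 1.17.1 gave the intervals. The section number pairs the libraries, which come from the same tissue, and deviations from the region means correlated at 0.325, 0.0374 and 0.0665 in sections 1, 2 and 3 over 190 genes. As the study averages replicates, the unpaired fit was the chosen one.

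The 6 genes, the 8 pathway lists and the 11 marker lists were chosen with earlier results of these data known. Named were the 6 genes, the 5 genes most like Pcsk2 and most like the sum, and from each pathway list the 3 and from each marker list the 2 genes with most UMIs, apart from some marker genes that are not reported here. The promoter motifs and the comparison of sections were chosen after the values were seen. Alternatives were other size factors and filters, the replicate block, deposited counts, other denominators and averages, thinning, and leaving out sections, libraries or genes.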

Additional observations from a re-analysis of the deposited data

How the results depend on the processing

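The count of genes called between DG and CA1 was 0 in 16 of 17 alternatives. With the replicate block and genes of at least 10 UMIs, 1 gene was called, Prkce, named for its call, and the cause was not tested. The count for the pathway lists was 0 in 17 of 17, and the replicate block changed no other call. The edgeR log2 fold change of Pcsk2 was above 0 in 17 of 17 alternatives, from 0.25 without the CA1 library of section 1 to 0.83 without the CA1 library of section 3, and 0.65 with the replicate block. All alternatives draw on the same 6 libraries, so a shared sign is description and not a test. For the summed share, the log2 ratio was -0.063 without Pcsk2 and ranged from -0.095 (no DG library of section 3) to 0.64 (no CA1 library of section 3) when libraries or sections were omitted, with 0.020 when the CA1 library of section 1 was. The cause was not tested. The log2 ratio of the Pcsk2 share was above 0 in 15 of 15 alternatives, again from the same libraries, with 0.70 on the deposited counts. Of 15 alternatives each, the sign changed in 2 for Chgb, 3 for Scg2, 2 for Scg3, 8 for Cpe and 2 for Pam, genes with at most 12 UMIs in all, so depth limits any statement on their regions.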
